A study of Mus musculus with 12 samples.

Results

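The AP-1 and immediate early genes described here are 10 genes chosen by name: Fos, Fosb, Fosl1 and Fosl2 of the Fos family, Jun, Junb and Jund of the Jun family, and Atf3, Egr1 and Ier2. For each gene, the H3K4me3 region with the most peak-covered bases within 1 kb of the annotated start was taken (for 3 genes of unknown strand, within 1 kb of either gene end). All 10 had such a region, as did 12561 of the 21883 protein-coding genes with a position, and all 10 regions were marked in all 6 H3K4me3 libraries. H3K4me3 is a histone mark of active promoters, and breadth here means the number of bases of a region that a library's peaks cover.

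The study mapped H3K4me3 and H3K27me3 by CUT&Tag, in which an antibody-directed Tn5 transposase cuts the DNA around a histone mark. The cells came from mouse organoids labelled as PyMT derived, a breast cancer model in which a viral oncoprotein drives mammary tumours, with the genotype given as WT in every group. Organoids were treated with Ctrl (the control), with SR2 or with THC and taken at day 3, with 2 libraries per treatment and mark, numbered 1 and 2 as replicates and as batches. The title of the series asks about CB2R, a cannabinoid receptor, and what SR2 stands for, the doses and the promoter of the oncogene are not given in the sources used here. The labels do not say whether replicates were separate cultures, so the spread between them, and every p-value below, may be technical.

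Immediate early genes are transcribed within minutes of a growth or stress signal, without new protein synthesis, through kinases that act on serum response factor, its partners and CREB already bound at their promoters. Fos proteins pair with Jun proteins to form AP-1, a dimer that binds the TGA-containing sites of many genes of proliferation, invasion and stress. Fos family proteins cannot pair with each other, whereas Jun proteins also pair among themselves and with ATF proteins. In mammary epithelium and breast tumours AP-1 is known for its part in growth factor responses and in cell state.

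The 250 bases before the annotated start are shown for 5 of the genes. The mark covered them at Fos, Jun and Atf3 in every library and at Fosb in all but THC replicate 1. At Jund it covered none of them in any library. They are RefSeq sequence of build GRCm38.p6, written 5′ to 3′ along the gene. Fos lies at chr12:85473640-85473889 (+ strand), Fosb at chr7:19310046-19310295 (− strand), Jun at chr4:95052223-95052472 (− strand), Atf3 at chr1:191183334-191183583 (− strand) and Jund at chr8:70697489-70697738 (+ strand). Capitals mark the half-site of the cyclic AMP response element TGACG, the site TGACATCA, the TATA box TATAAA and the site GCGGGGGCG of EGR proteins, wherever a search of both strands found them.
Fos: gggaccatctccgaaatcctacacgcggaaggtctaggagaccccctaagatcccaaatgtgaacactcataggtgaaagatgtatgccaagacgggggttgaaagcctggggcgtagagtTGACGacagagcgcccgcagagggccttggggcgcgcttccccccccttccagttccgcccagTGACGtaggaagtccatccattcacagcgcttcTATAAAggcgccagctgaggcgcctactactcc
Fosb: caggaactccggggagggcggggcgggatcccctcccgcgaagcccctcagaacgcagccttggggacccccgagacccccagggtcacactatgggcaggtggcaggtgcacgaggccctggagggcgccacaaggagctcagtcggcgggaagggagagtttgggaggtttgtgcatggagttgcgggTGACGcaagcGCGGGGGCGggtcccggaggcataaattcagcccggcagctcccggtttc
Jun: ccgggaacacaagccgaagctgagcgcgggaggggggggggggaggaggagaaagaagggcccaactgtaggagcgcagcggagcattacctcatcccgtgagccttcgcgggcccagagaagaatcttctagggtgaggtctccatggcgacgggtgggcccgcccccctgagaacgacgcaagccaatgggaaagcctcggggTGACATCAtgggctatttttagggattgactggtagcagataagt
Atf3: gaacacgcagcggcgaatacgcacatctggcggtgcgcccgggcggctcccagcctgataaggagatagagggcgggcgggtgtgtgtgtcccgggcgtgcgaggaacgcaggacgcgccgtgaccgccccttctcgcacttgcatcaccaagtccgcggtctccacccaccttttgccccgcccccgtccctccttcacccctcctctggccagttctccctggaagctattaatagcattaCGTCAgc
Jund: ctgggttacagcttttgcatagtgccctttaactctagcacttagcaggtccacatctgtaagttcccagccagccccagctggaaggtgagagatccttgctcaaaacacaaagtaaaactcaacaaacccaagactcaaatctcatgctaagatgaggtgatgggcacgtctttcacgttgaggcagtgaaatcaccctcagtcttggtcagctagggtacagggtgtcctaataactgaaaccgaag

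RefSeq promoters were at hand for 7 of the 10 members (Fos, Fosb, Fosl2, Jun, Junb, Jund and Atf3). TGACG, which binds CREB and ATF proteins, was found in 4 of these 7 (Fos, Fosb, Junb and Atf3) and in 17.8% of 32851 mouse promoters of the same length. Fos held it at 2 places, 66 and 129 bases before the start, and also held TATAAA from 33 bases before the start, which 12.4% of promoters have. Jun held TGACATCA from 45 bases before the start, a sequence found in 2.93% of promoters. GCGGGGGCG was found in Fosb and Fosl2 and in 2.57% of promoters, and it overlaps the GC box GGGCGG in both. The GC box itself was found in 5 of the 7 and in 32.7% of promoters, and CCAAT in Jun and Junb and in 33.8%. The full element TGACGTCA, which contains the half-site, the AP-1 sites TGACTCA and TGAGTCA, and the serum response element (CArG box) were not matched in these 7 windows. They occur in 1.55%, 4.46% and 1.47% of promoters. The windows reach 250 bases before the start, so sites further upstream were not searched. Fosl1, Egr1 and Ier2 were not searched at all. Jund, with none of the 9 motifs searched and 47.6% G and C, stood below the promoter median of 52.4%, while the other 6 had 58.4 to 68.8%. These Jund values describe bases before an annotated start that no library's peaks covered, and whether that start is in use was not tested. A match here is a description of letters and not evidence of binding.

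The H3K4me3 lists held 11924 to 18383 peaks. THC replicate 1 stood apart as the shallowest library: over the 10140 regions marked in all 6 libraries its median summit pileup, the number of fragments stacked at a peak's highest point, was 23, against 49 to 128 in the other 5. Its median breadth over those regions was 803 bp, against 1029 to 1284 bp. Breadth and depth were thus lowest in the same library, and the part of depth in the differences below was not tested. Among cell type markers, 5 of 5 luminal genes had a peak in the Ctrl and SR2 libraries and THC replicate 2, and 3 of 5 in THC replicate 1, with 5803 to 7410 bp in sum against 3487 bp. Of 4 basal genes, Krt5, Krt14 and Krt17 had a peak in 5 libraries and none in THC replicate 1, while Acta2 had none in any. Ptprc, Cd3e and Lyz2 of blood cells, Pecam1 and Cdh5 of endothelium, Pdgfra and Dcn of fibroblasts and the 3 adipocyte genes were at 0 in all 6. Col1a1 had a peak in every library, with 901 to 1142 bp in Ctrl and SR2 and 292 and 360 bp in THC, Kdr had one in 3 libraries and Cd68 in 3.

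H3K4me3 was broad at most of the 10 genes and was narrowest at Atf3. The median breadth of the members was 2506.5 and 2208.5 bp for Ctrl, 2018 and 2468 bp for SR2, and 1594 and 2116.5 bp for THC (replicates 1 and 2, in that order throughout). Over all regions at protein-coding genes the medians of the same libraries were 1215, 1148, 1034, 1110, 820 and 1003 bp. Between 6 and 8 of the 10 members were broader than 90% of those regions, depending on the library. The members are short genes, with a median length of 3567.5 bp against 23696 bp for the 12561 protein-coding genes with a region.

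**Figure D1:**
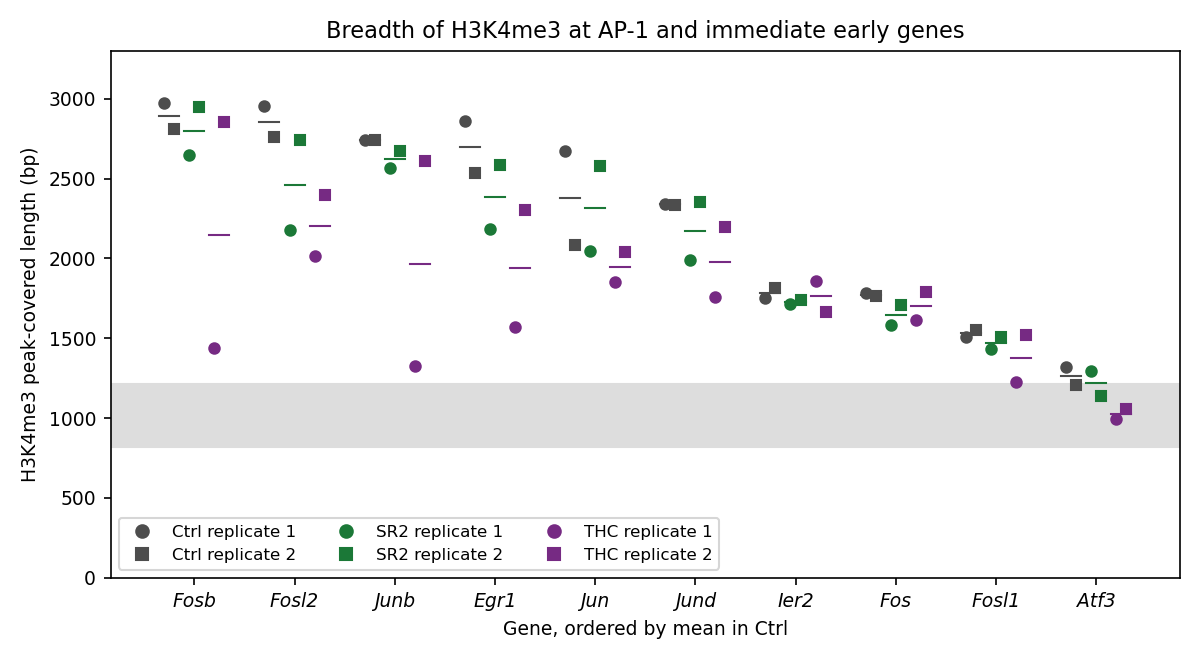
Peak-covered length of the H3K4me3 region of each gene (y axis, bp) in each of the 6 libraries, with a line at the mean of each treatment and a grey band over the range of the library medians of all regions at protein-coding genes (820 to 1215 bp). Fosb and Junb in THC replicate 1, at 1440 and 1327 bp, sit far below their other 5 libraries, and Ier2 and Fos span the smallest ranges.

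Among the Fos family genes, Fos, the founding member, was covered over 1784 and 1762 bp in Ctrl, 1582 and 1708 bp in SR2, and 1615 and 1792 bp in THC. Its region (chr12:85473491-85475307, mm10) took in 41.9% of the gene from the start side. The SR2 libraries were both below the Ctrl libraries, and THC replicate 2 was the highest of the 6. Fosb, a close paralogue of Fos, had the largest mean breadth in Ctrl and SR2, with 2973 and 2808 bp in Ctrl, 2647 and 2949 bp in SR2, and 1440 and 2852 bp in THC (chr7:19307466-19310461). Its THC replicates lay further apart than any other pair of the members' values. Fosl2, which encodes Fra-2, had 2952 and 2760 bp in Ctrl, 2176 and 2741 bp in SR2, and 2012 and 2398 bp in THC (chr5:32135157-32138108), with both treatments below Ctrl in every library. Fosl1, which encodes Fra-1, a Fos protein tied to invasive breast cancer cells, had 1507 and 1553 bp, 1432 and 1506 bp, and 1225 and 1523 bp (chr19:5447510-5449062), and THC overlapped Ctrl.

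Of the Jun family, Jun had 2670 and 2081 bp in Ctrl, 2046 and 2581 bp in SR2, and 1853 and 2039 bp in THC (chr4:95050390-95053079). Its Ctrl replicates differed by more than the Ctrl and SR2 means, and the region is shared with Junos, a non-coding gene beside it. Junb, often a weaker activator than Jun, had 2743 and 2741 bp in Ctrl, 2564 and 2675 bp in SR2, and 1327 and 2609 bp in THC (chr8:84976149-84978957). Jund, the Jun gene expressed most evenly in resting cells, had 2343 and 2336 bp, 1990 and 2355 bp, and 1759 and 2194 bp (chr8:70698448-70700823). Both treatments lay below Ctrl for Junb, whereas for Jund this held for THC and SR2 replicate 2 was the highest of the 6.

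Atf3, a stress-induced partner of Jun proteins, was the narrowest, with 1323 and 1206 bp in Ctrl, 1297 and 1137 bp in SR2, and 992 and 1060 bp in THC (chr1:191182309-191183636). Egr1, a zinc-finger factor induced alongside Fos, had 2858 and 2533 bp, 2187 and 2587 bp, and 1573 and 2306 bp (chr18:34859942-34862994). The THC libraries were below Ctrl for both genes. Ier2, a small immediate early nuclear protein gene, had 1753 and 1814 bp in Ctrl, 1716 and 1739 bp in SR2, and 1857 and 1667 bp in THC (chr8:84661217-84663083). Alone among the members, it was at its widest in THC replicate 1.

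Ordered by mean breadth in Ctrl, Fosb (2890.5 ± 117 bp, SD, n = 2) and Fosl2 (2856 ± 136 bp) came first, followed by Junb (2742 ± 1.41 bp), Egr1 (2695.5 ± 230 bp), Jun (2375.5 ± 416 bp) and Jund (2339.5 ± 4.95 bp). Ier2 (1783.5 ± 43.1 bp) and Fos (1773 ± 15.6 bp) were next, and Fosl1 (1530 ± 32.5 bp) and Atf3 (1264.5 ± 82.7 bp) last. The replicates of neighbours overlapped from Fosb to Fosl2, from Junb to Egr1, from Egr1 to Jun, from Jun to Jund and from Ier2 to Fos, so those orders are within the spread. The last 4 places were the same in SR2 and THC, with Ier2 at 1727.5 ± 16.3 and 1762 ± 134 bp, Fos at 1645 ± 89.1 and 1703.5 ± 125 bp, Fosl1 at 1469 ± 52.3 and 1374 ± 211 bp, and Atf3 at 1217 ± 113 and 1026 ± 48.1 bp.

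Ranked within each library, Fosb was the 59th and 67th broadest of 11114 and 10716 regions in Ctrl, the 57th and 34th of 10184 and 10595 in SR2, and the 704th and 20th of 9180 and 9960 in THC. Junb ranked 113th and 91st for Ctrl, 78th and 82nd for SR2, and 1027th and 50th for THC. Egr1 ranked 86th and 157th in Ctrl, and Jun 148th and 513th. Fos stood lower, at 1477th and 1249th in Ctrl, with 86.7% and 88.3% of regions narrower. Atf3, at 4470th and 4776th, was near the middle of its lists. The lists differ in length, so ranks are given within a library and not as changes.

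The members' breadth was not matched by fold enrichment. The authors' fold enrichment over local background placed the median member at the 22.0th to 29.4th percentile of its library's peaks, while the local background itself, as the caller computed it around the peak, was at the 95.1st to 97.0th percentile. The median percentile of the summit pileup was between them, at 68.0 to 81.3. Pileup and background were both recovered from fold enrichment and −log10 p, so these percentiles are not separate evidence. They rank all peaks of a list, whereas breadth was ranked among regions at protein-coding genes. Junb in Ctrl replicate 1 had a pileup of 169 fragments over a background of 51.6, a fold enrichment of 3.23 that only 3.75% of peaks fell below. Egr1 in the same library had the highest pileup of the members, 292 fragments, over a background of 51.0, a fold enrichment of 5.63. The member with the highest fold enrichment there was Fosl1 at 7.98, with a background of 17.7.

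**Figure D2:**
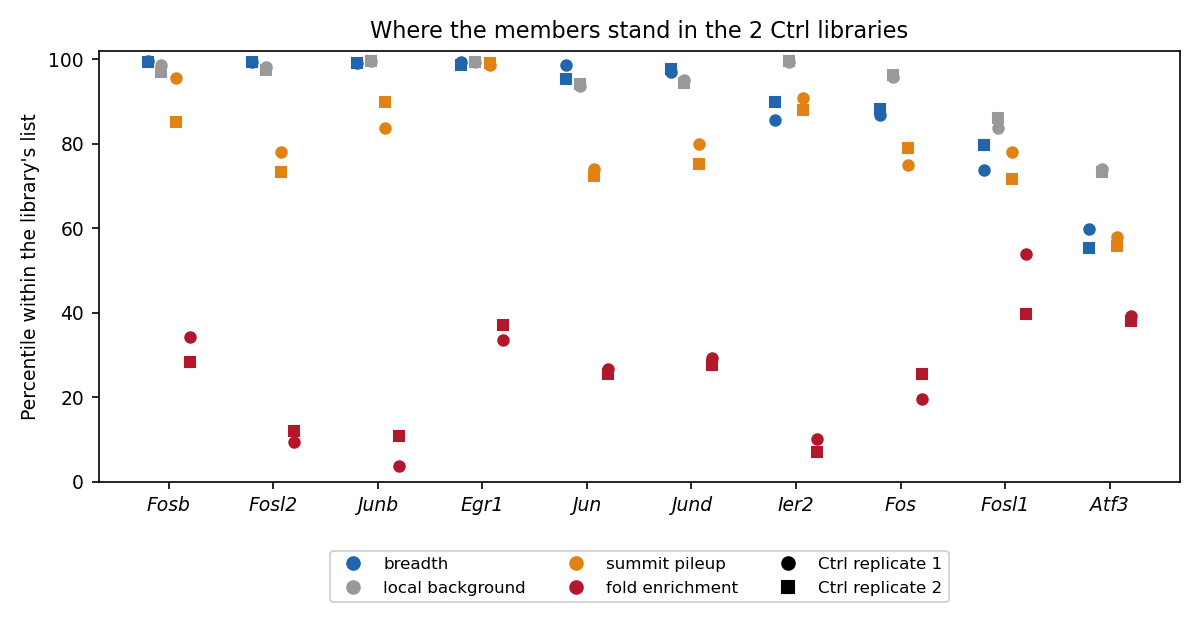
Percentile of each gene within the 2 Ctrl libraries (y axis) for breadth among regions at protein-coding genes, and for local background, summit pileup and fold enrichment among all peaks of the list, with circles for replicate 1 and squares for replicate 2. For all genes but Atf3 and Fosl1, breadth is above the 85th percentile while fold enrichment is below the 40th.

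The mark was mapped against the annotated start for the 7 members with a known strand, and against the gene end nearest the region for Fosl1, Egr1 and Ier2. At Fos the peak began 284 to 399 bp before the start and ended 1289 to 1417 bp after it, so that 77.4 to 82.0% of it lay in the transcribed direction. At Fosb it reached 2191 to 2579 bp into the gene, and its summit was 1384 to 1592 bp after the start in all 6 libraries. Atf3 ended 737 to 1024 bp after the start, and Fosl2 was the most even, with 47.3 to 57.9% of the mark after the start. At Junb and Ier2 the region took in 100% of the gene and ran beyond both ends. Over the 7 members the median share after the start was 77.6 to 82.0% by library, against 65.6 to 68.7% over 8321 protein-coding genes with a known strand and a region marked in all 6 libraries.

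Jund differed from the other 6 in that no library's peaks covered its annotated start. Its peaks began 709 to 835 bp after the start and ended 2507 to 3084 bp after it, and none of the 250 upstream bases printed above was covered. Among the 8321 genes the start was covered in 94.2 to 97.5% outside THC replicate 1 and in 85.2% there. Of the 7 members, 6 had the start covered in each of the other 5 libraries and 4 in THC replicate 1.

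The 2 further members without a covered start in THC replicate 1 were Fosb and Junb, where that library's peak was broken in 2. The Fosb pieces lay from 420 to 689 bp and from 1022 to 2191 bp after the start, against 1 peak from at least 250 bp before the start in each other library. The Junb pieces lay from 136 to 403 bp and from 1360 to 2418 bp. Egr1 in SR2 replicate 2 was the only other case of 2 peaks, so 57 of the 60 pairs of gene and library had a single peak. At Jun the upstream edge was 837 and 857 bp before the start in Ctrl replicate 1 and SR2 replicate 2, and 356 to 394 bp in the other 4. Those 2 libraries hold its 2 broadest values. The highest summit of Junb lay 2197 to 2278 bp after the start in Ctrl and THC and 80 and 141 bp after it in SR2, with no test made of this difference. Junb is 1840 bp long, so the former summits lie past its end. The highest summit also moved between the Ctrl replicates at Jun (920 and 29 bp) and Fosl2 (374 and −806 bp), while at Fosb it lay at 1469 and 1468 bp.

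**Figure D3:**
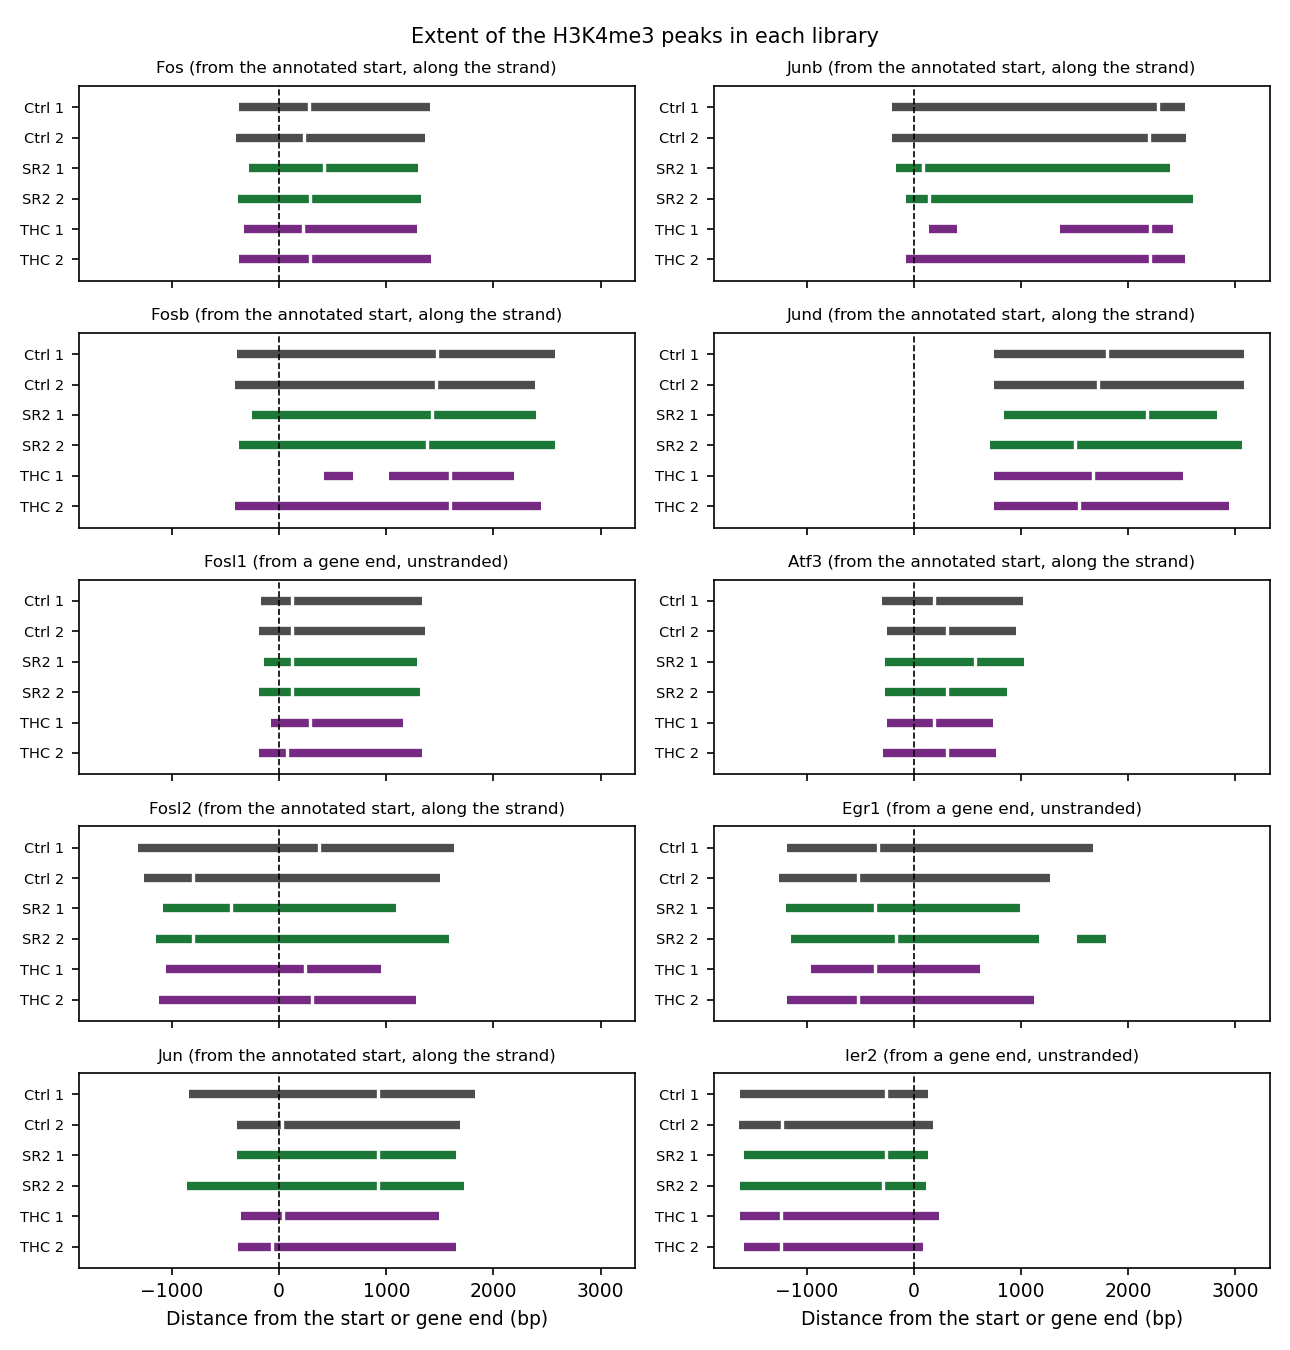
Extent of the peaks of each library (bars, 6 rows per gene) in bp from the annotated start along the strand for 7 genes, or from a gene end for Fosl1, Egr1 and Ier2, where the gene lies to the right for Fosl1 and Egr1 and to the left for Ier2. White ticks mark the highest summit. The Jund bars begin 709 to 835 bp after the start, and the Fosb and Junb bars of THC replicate 1 are broken in 2.

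SR2 was compared with Ctrl to ask whether the treatment went with another breadth or height of the mark. In the values as deposited, 5 of the 10 members (Fos, Fosl1, Fosl2, Junb and Ier2) were narrower in both SR2 libraries than in both Ctrl libraries, against 48.5% of the 10140 regions marked everywhere, so the count is near the background. Breadth was then tested with limma on log2(covered bp + 200) after centring each library on its median, over 15772 regions, and the changes below are relative to that centring. Without it the median change over all regions was −0.17 (log2) for SR2 and −0.52 for THC, both against Ctrl, and −0.27 between THC and SR2.

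By limma 0 of the 10 members passed an adjusted p of 0.05 for breadth in SR2 against Ctrl, where 0.0% of all regions passed. At an unadjusted p under 0.05 the members numbered 0 and the regions 1508 (9.56%). The smallest adjusted p among the members was 0.930, for Fosl1. The members' log2 changes ran from −0.07 (Fosl2) to 0.10 (Jun), with a median of 0.08. That median was −0.03 over all regions and 0.02 over the 9023 regions at protein-coding genes marked in all 6 libraries. The members' 95% intervals ran from −0.10 to 0.28 for Fosl1, the narrowest, to −0.42 to 0.61 for Fosb, the widest. An exact permutation test of a single gene in this design cannot give a p below 0.333.

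THC was compared with the same Ctrl libraries. As deposited, 6 of the 10 members (Fosl2, Jun, Junb, Jund, Atf3 and Egr1) were narrower in both THC libraries, against 84.3% of regions. After centring, limma called 0 of the 10 members and 0.0% of regions, while 2 members and 3598 regions (22.8%) had an unadjusted p under 0.05. Those 2 members were Fos and Fosl1, both with estimates above 0 after centring, as in 695 of the 3598 regions (4.41% of those tested). The log2 change of Fos was 0.32 (SE 0.09, unadjusted p 0.0107, limma adjusted p 0.136), with differences of 0.44 within batch 1 and 0.21 within batch 2. Without THC replicate 1 it was 0.26, without THC replicate 2 it was 0.41, and without centring it turned to −0.05. It was 0.21 with peaks merged across gaps of up to 500 bp and 0.19 with a pseudocount of 1000 bp. Fosl1 had a log2 change of 0.24 (SE 0.08, limma adjusted p 0.161), 0.30 and 0.17 within the batches, 0.14 with that pseudocount and −0.14 without centring.

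Ier2 had the largest estimate, 0.36 (SE 0.15, limma adjusted p 0.231), but it was uneven between the batches at 0.64 and 0.08. It was 0.16 without THC replicate 1, 0.58 without THC replicate 2, 0.22 with the pseudocount of 1000 bp and −0.02 without centring. Fosb and Junb had log2 changes of −0.09 (SE 0.21) and −0.13 (SE 0.20), with the broken peaks of THC replicate 1 among their values. Within batch 1 they were −0.39 and −0.38, and within batch 2 they were 0.21 and 0.12. Counting only bases within 1 kb of the start they were −0.56 and −0.54 (limma adjusted p 0.494 and 0.420), with only peaks of −log10 q of at least 5 they were −0.24 and −0.29, and without centring −0.47 and −0.51. Without THC replicate 1 they were 0.23 and 0.18, and with that library as the lone THC sample −0.38 and −0.42. The median member was at 0.12, against −0.15 over all regions and 0.03 over the 9023 regions at protein-coding genes marked in all 6 libraries.

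THC and SR2 were also compared directly. By limma 0 of the 10 members and 0.0% of regions passed for breadth, with 1 member and 1369 regions (8.68%) at an unadjusted p under 0.05. Regions that were wider in THC at that threshold made up 1.84% of those tested. The member was Fos, with 1582 and 1708 bp in SR2 against 1615 and 1792 bp in THC and a log2 change of 0.28 (SE 0.09, limma adjusted p 0.388). It was 0.36 within batch 1 and 0.21 within batch 2, but 0.04 without centring. With peaks merged across gaps of up to 500 bp it was 0.03, and with a pseudocount of 1000 bp 0.17. Fosb and Junb were at −0.48 and −0.50 without THC replicate 2, and at 0.13 and 0.09 without THC replicate 1.

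The height of the mark was compared by summit pileup over the 10140 regions with a peak in all 6 libraries. As deposited, 10 of the 10 members were lower in both SR2 and in both THC libraries than in Ctrl, against 89.5% and 98.8% of regions, and the median pileup of all 4 treated libraries was also lower. Egr1 was the highest member in every library but THC replicate 1, with 292 and 232 fragments for Ctrl, 91 and 155 for SR2, and 39 and 103 in THC. Divided by the library medians these were 2.28 and 2.44 for Ctrl, 1.86 and 2.01 for SR2, and 1.70 and 1.94 with THC, so both treatments lay below both Ctrl libraries also after scaling. After centring, 4 of the 10 members were lower in both SR2 libraries than in both Ctrl libraries, against 18.7% of regions. For THC it was 2 of the 10, against 17.4%, so that count is near the background. Higher than both Ctrl libraries were 0 of the 10 for SR2, against 18.6% of regions, and 2 for THC (Jun and Ier2), against 22.2%. The log2 change of Egr1 after centring was −0.38 in THC (SE 0.12, unadjusted p 0.00589, limma adjusted p 0.423) and −0.29 in SR2 (SE 0.12, unadjusted p 0.0295, limma adjusted p 1.00), neither of which passed. Within batches it was −0.43 and −0.33 in THC, and −0.30 and −0.28 in SR2. It was −0.28 in THC without THC replicate 1.

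**Figure D4:**
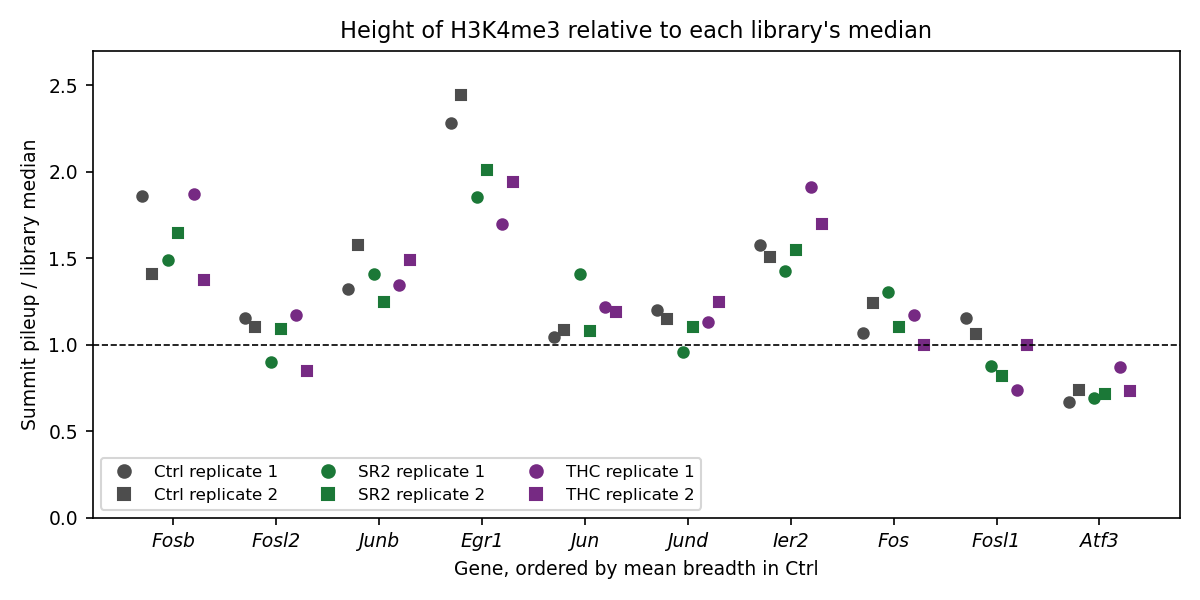
Summit pileup of each gene divided by the library's median over the regions marked in all 6 libraries (y axis, ratio; dashed line at 1), by library. Egr1 is highest in 5 libraries, with Ctrl at 2.28 and 2.44 above all 4 treated libraries. Atf3 is lowest in the same 5, at 0.672 to 0.737, and is at 0.870 in THC replicate 1, where Fosl1 is lowest.

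Fosl1 was the other member with lower scaled height in both treatments, at 1.16 and 1.06 times the library median for Ctrl, 0.878 and 0.818 for SR2, and 0.739 and 1.00 with THC. Its log2 change was −0.39 in SR2 (SE 0.18, unadjusted p 0.0417, limma adjusted p 1.00), alike in the batches at −0.40 and −0.38. Ier2 was at 1.58 and 1.51 for Ctrl, 1.43 and 1.55 for SR2, and 1.91 and 1.70 with THC, so THC was above the other 4 libraries. After centring, 22.2% of regions were higher in both THC libraries than in both Ctrl libraries, and 18.0% than in both SR2 libraries. The log2 difference of Ier2 between THC and SR2 was 0.28 (SE 0.13, unadjusted p 0.0451, limma adjusted p 0.761), with 0.42 and 0.14 within the batches, and −0.54 without centring. Fos, at 1.07 and 1.24, 1.31 and 1.10, and 1.17 and 1.00, overlapped across the 3 treatments, and so did Fosb, Fosl2 and Junb between THC and Ctrl.

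By limma 0 of the 10 members were called for height in any of the 3 comparisons, with smallest adjusted p of 1.00 for SR2 and 0.423 for THC, each against Ctrl, and 0.761 between THC and SR2. The regions called were 2 (0.0197%), 22 (0.217%) and 0 (0.0%). The replicate block, a batch term in the fit, raised these counts to 14, 32 and 0. At an unadjusted p under 0.05 there were 2 members against 3.93% of regions for SR2, 1 against 8.47% for THC, and 1 against 6.33% between the treatments. In the members' own directions the shares of regions were 1.73% (lower, Egr1 and Fosl1), 3.12% (lower, Egr1) and 3.84% (higher, Ier2). The 95% intervals of the members together spanned −0.76 to 0.54 for SR2 and −0.74 to 0.58 for THC.

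**Figure D5:**
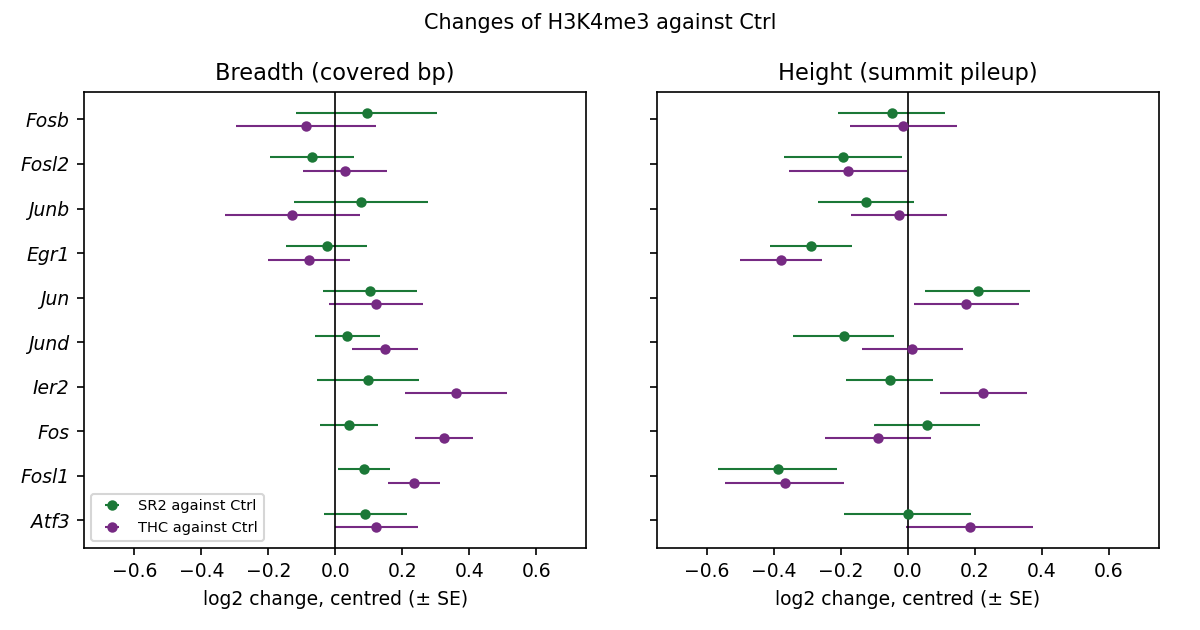
Log2 change of breadth (left) and of summit pileup (right) against Ctrl after centring, with bars of 1 SE, for SR2 (green) and THC (purple). Both treatments share the Ctrl libraries, and no change passed an adjusted p of 0.05. The largest estimated changes of breadth are Ier2 and Fos in THC, at 0.36 and 0.32. The most negative estimated changes of height are Fosl1 in SR2 and Egr1 in THC, at −0.39 and −0.38.

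H3K27me3, the mark of Polycomb repression, was listed at 1 of these genes in 1 library. Over the gene and 5 kb on each side, 1 of the 60 pairs of gene and library had a broad peak. It lay at Egr1 in SR2 replicate 1 (chr18:34860982-34861784), over 803 bp, with a fold enrichment of 3.43 and a −log10 q of 1.23, and it overlapped the H3K4me3 region. The other 5 libraries had none there. Of all protein-coding genes, 2.96% had a peak in that library and 0.137 to 7.92% in the 6 libraries, so the members' count is no result about them. These lists were short, with 70 to 2712 peaks, and their depth is unknown, so a missing peak does not show that the mark is absent.

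Smaller H3K4me3 peaks flanked 4 of the genes outside the main region and apart from other genes' starts. Fos had one centred 2331 bp after its start (chr12:85475784-85476660), covered over 401 and 264 bp in Ctrl, 317 and 795 bp in SR2, and 0 and 332 bp in THC. Fosl2 had one centred 2191 bp after its start (chr5:32138391-32138936), which was present in both Ctrl libraries at 408 and 466 bp and at 0 in all 4 treated ones. Of the 14612 regions marked in both Ctrl libraries, 7.84% had no peak in either SR2 library and 17.5% none in either THC library. Junb had one centred upstream, at −1391 bp from its start, at 526 and 563 bp in Ctrl, 412 and 568 bp in SR2, and 0 and 412 bp in THC. Ier2 had 3 nearby, of which the one centred 2456 bp from its gene end was marked in all 6 libraries, at 263 to 824 bp.

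Other genes of the pathway were grouped in 4 lists and tested for breadth in the same fits. Of 18 further AP-1 and ATF family genes 16 had a region and 13 were marked in all 6 libraries. Batf2 and Nrl had none. Limma called 0 of the 15 tested in any comparison, with 0, 1 and 0 at an unadjusted p under 0.05 for SR2 and THC, each against Ctrl, and between the treatments. Over all regions the shares at that threshold were 9.56%, 22.8% and 8.68%, the background for the counts of all 4 lists. The smallest p was that of Atf6, a factor of the unfolded protein response, with 1804 and 1374 bp in Ctrl, 1005 and 1290 bp in SR2, and 793 and 798 bp in THC. Its log2 change in THC was −0.46 (limma adjusted p 0.159) and in SR2 −0.27 (limma adjusted p 0.818). Atf2, a partner of Jun, was at 0.20 in THC (limma adjusted p 0.220), and Atf7 at 0.11 in SR2 (limma adjusted p 0.915). Mafa was at −0.95 for THC against SR2 (limma adjusted p 0.657), and it had no peak in THC replicate 1.

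Of 30 other immediate early genes 29 had a region, 27 of them in all 6 libraries. Limma called 0 of 29, with 2, 8 and 6 at an unadjusted p under 0.05, beside 9.56%, 22.8% and 8.68% of all regions. The median log2 change of these 29 was 0.01 in SR2 and 0.03 in THC against Ctrl. Over the 9023 regions at protein-coding genes marked in all 6 libraries it was 0.02 and 0.03, and over all regions −0.03 and −0.15. Egr4, a relative of Egr1, had 543 and 383 bp in Ctrl and was listed at 0 in all 4 treated libraries (limma adjusted p 0.122 in SR2 and 0.128 in THC). Ccn1, a secreted matrix protein gene, had 1928 and 1776 bp in Ctrl, 1170 and 999 bp in SR2, and 757 and 1306 bp in THC, a log2 change of −0.54 in SR2 (limma adjusted p 0.182). Klf10, a gene induced by TGF-beta, was at 0.39 in THC against Ctrl (limma adjusted p 0.149) and 0.38 against SR2 (limma adjusted p 0.401). Zfp36l1, which encodes an mRNA decay factor, was at −0.47 for THC against SR2 (limma adjusted p 0.450).

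Of 21 upstream kinases and factors 20 had a region, marked in all 6 libraries in each case, the exception being Mapk10. Limma called 0 of 20, with 0, 3 and 2 at an unadjusted p under 0.05, beside 9.56%, 22.8% and 8.68% of all regions. Srf, the serum response factor, had 1878 and 1852 bp in Ctrl, 1883 and 1851 bp in SR2, and 1628 and 1863 bp in THC, with log2 changes of 0.14 in SR2 (limma adjusted p 0.882) and 0.29 in THC (limma adjusted p 0.154). The p38 gene Mapk14 was at 0.27 for THC against SR2 (limma adjusted p 0.575). Map2k2 was at 0.28 in THC and Mrtfb at 0.16 in SR2 against Ctrl, with limma adjusted p of 0.188 and 0.694.

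Of 22 genes that AP-1 is known to activate, among them the luminal marker Krt18, 13 had a region and 7 were marked in all 6 libraries, and Mmp3, Mmp9, Mmp10, Mmp13, Spp1, Timp1, Il6, Ccl2 and Lif had none. Limma called 0 of 13, with 1, 4 and 0 at an unadjusted p under 0.05, beside 9.56%, 22.8% and 8.68% of all regions. The median log2 change of the 13 in THC against Ctrl was −0.80 beside −0.15 over all regions. In THC replicate 1, 7 of the 13 had a peak, against 12 or 13 in the other libraries. Ptgs2, the inducible cyclooxygenase gene, had 841 and 337 bp in Ctrl and was listed at 0 in the treated libraries (limma adjusted p 0.122 and 0.136), in a region shared with its antisense gene Ptgs2os. Areg, which encodes the growth factor amphiregulin, had 868 and 1011 bp in Ctrl, 477 and 494 bp in SR2, and 0 and 348 bp in THC (limma adjusted p 0.154 for THC against Ctrl). Ccnd1, the cyclin D1 gene, had 2827 and 2557 bp, 2072 and 2107 bp, and 367 and 1601 bp (limma adjusted p 0.618 for THC against SR2). Plau, the urokinase gene, was at −0.19 in SR2 against Ctrl and 0.24 for THC against SR2, with limma adjusted p of 0.872 and 0.644.

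The genes whose breadth was most like that of 3 members over the 6 libraries were found by Euclidean distance of centred log2 breadth among 10177 genes. For Fos they were Eif5 (distance 0.06), Ppp4r3b (0.08) and Eif4a1 (0.09), and for Jun they were Atxn1 (0.20), Inppl1 (0.21) and Ddx6 (0.24). For Egr1 they were Sdc1 (0.14), Hexim1 (0.16) and Zc3h4 (0.19). Eif5, nearest to Fos, had 1744 and 1762 bp in Ctrl, 1607 and 1678 bp in SR2, and 1636 and 1729 bp in THC. All values share the depth of the same libraries.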

How the data were processed

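H3K4me3 and H3K27me3 peak lists of 12 libraries were used, 1 list per library. Per the submitters' processing notes the build was mm10 and the tools included cutadapt 5.2, Bowtie2 2.5.4, SAMtools 1.8 and MACS3, with roles and order not given. Peaks were called per library, as the deposited peak names show. The authors' fold enrichment is a ratio to the caller's background within 1 library. The deposited −log10 p and −log10 q are the caller's, and −log10 q reached down to 1.30 in the H3K4me3 lists. Peak starts, ends and summit offsets are the authors' deposited coordinates, a unit with no scale of expression. Lists called at different depths can differ in how much of a region is called, and the part of depth was not tested.

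Peaks were merged across libraries where they overlapped by at least 1 bp (24596 regions). The summit pileup was taken as the whole number that, with the fold enrichment, best gave back the deposited −log10 p. In at least 99.99% of peaks the −log10 p was matched within 0.005, or within 0.05% of its value where that was larger. Gene positions and starts came from RefSeq GRCm38.p6, the assembly of mm10. Breadth was fitted with limma 3.58.1 in R 4.3.3 (trend, 1 fit of 6 libraries, log2 of covered bp + 200, median-centred, 15772 regions marked in at least 2 libraries). Pileup was fitted likewise on log2 values, with no pseudocount, over 10140 regions. P-values are two-sided and adjusted by Benjamini-Hochberg over all regions. The fit was also run on simulated data with the same spread in every region and no depth difference between libraries. Those settings differ from these data, so that run does not show how the fit performs here. Fold changes in breadth on the log2(bp + 200) scale understate the change of narrow regions. The batch number, which is the replicate number, was used to pair the samples for the within-batch differences and the replicate block. Deviations of same-numbered samples correlated at −0.0619 (Ctrl and SR2), 0.0344 (Ctrl and THC) and 0.0479 (SR2 and THC) over 15772 regions. With correlations this weak, the within-batch differences are descriptions and not paired tests. Alternatives were other pseudocounts, no centring, stricter or equal peak lists, merging across gaps, a window of 1 kb, fewer libraries and a batch term. The members and gene lists were chosen with earlier results of these data known. Named list genes were those past the threshold, those with a peak in both libraries of 1 group and neither of another, and the 2 with the smallest p per list and comparison, of which some are not reported here. Exons and untranslated regions were not analysed here.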

Additional observations from a re-analysis of the deposited data

How the results depend on the processing

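The members' median summit pileup was lowest in THC replicate 1, at 27.5 against 64.5 to 151 in the other 5 libraries, so counting error is largest there. For breadth, the number of members called by limma was 0 in each alternative for SR2 against Ctrl. It was 0 to 3 for THC against Ctrl and 0 to 2 between THC and SR2 when single libraries were left out, with 3 and 2 reached without THC replicate 2, where the lone THC sample was assumed to vary like the other groups. For height it was 0 throughout, except 9 for THC against Ctrl with no centring. With the replicate block it was 0 in all 6 comparisons, and the block changed no call of a member. With no centring the breadth change in THC against Ctrl turned to −0.053 for Fos, −0.14 for Fosl1 and −0.017 for Ier2, and the height of Ier2 in THC against SR2 turned to −0.54. Heights of Egr1 with no centring were −2.04 in THC and −1.13 in SR2, and that of Fosl1 in SR2 was −1.23. Leaving out single libraries gave −0.38 to 0.23 for the breadth of Fosb and −0.42 to 0.18 for Junb in THC against Ctrl, and 0.26 to 0.41 for Fos, 0.18 to 0.30 for Fosl1 and 0.16 to 0.58 for Ier2. Over all regions limma called 0 for breadth in the fits reported, but 1059 (SR2) and 1417 (THC against Ctrl) with a pseudocount of 50 bp, 994 and 1914 with no centring, and 1929 for THC against Ctrl with only those 4 libraries. It also called 4 for THC against Ctrl with equal numbers of peaks, and 2183 in that comparison and 1189 between THC and SR2 without THC replicate 2. For height it called 2, 22 and 0 in the fits reported. In SR2 against Ctrl the count was 0 with no centring, 7 with only those 4 libraries, 14 with the block and 0 to 13 with single libraries left out. In THC against Ctrl it was 8403 with no centring, 32 with the block, and 222 without THC replicate 2 against 14 to 20 without each other library. In THC against SR2 it was 49 without THC replicate 2. The cause of these changes was not tested. H3K27me3 lay at 1 member with or without 5 kb of flank.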
